A study of Mus musculus with 12 samples.

Results

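TRBD1 and TRBD2 are the only diversity (D) segments of the mouse T cell receptor (TCR) beta locus, and the clonotypes assigned to them were followed here through 12 TCR beta repertoires. A clonotype is a distinct rearranged beta chain sequence, and those with at least 2 unique molecular identifiers (UMIs, tags that count cDNA molecules) were taken from every library. Of 25630 such clonotypes, 18334 had a D segment listed first in the deposited alignment, 10634 of them TRBD1 and 7700 TRBD2. The other 7296 had no D segment listed. Counting every clonotype regardless of its UMIs gave 113665.

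The study asked whether loss of the energy sensor AMP-activated protein kinase (AMPK) in T cells changes their clonal expansion in the intestine-inflaming T cell transfer model. Naive CD4+ T cells were injected into Rag2-/- mice, which make no T or B cells of their own, and donor CD4+ T cells were recovered from the spleen and mesenteric lymph node (mLN) after 6 weeks. WT donors were PRKAA1fl/fl and KO donors were PRKAA1fl/fl with CD4-Cre, so that both genotypes carried the floxed gene for the AMPKα1 subunit and only KO donors carried the recombinase. All mice were on the C57BL/6 background and were young adults. There were 4 groups of 3 libraries, from the spleen and the mLN of 3 WT mice (numbered 1, 3 and 4) and 3 KO mice (numbered 1, 2 and 3), where a spleen and an mLN library of the same genotype and number were treated as 1 mouse. The CD4 promoter drives Cre in thymocytes that already carry a rearranged beta chain, all T cells in a recipient descend from the transferred cells, and whether mice of a group shared a donor is not given in the sources used here. P-values therefore measure the spread between these recipients.

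A beta chain is assembled in 2 steps, in which a D segment first joins a J segment and a V segment then joins the DJ unit. The locus holds its D, J and C segments in 2 consecutive clusters, TRBD1 with the TRBJ1 segments and TRBC1, followed by TRBD2 with the TRBJ2 segments and TRBC2. TRBD1 can join either J cluster by deletion of the DNA between them, whereas TRBD2 lies downstream of every TRBJ1 segment and cannot normally reach them by deletion. Clonotypes listed with TRBD2 and a TRBJ1 segment were therefore read as a gauge of error in D assignment. Nucleases trim both ends of the D segment, terminal transferase adds random (N) nucleotides, and palindromic (P) nucleotides can remain from hairpin opening, so that often only a few D bases survive in the complementarity-determining region 3 (CDR3), the loop that contacts the peptide.

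The germline sequences show how little separates the segments. They were read from the GRCm38 mouse genome at the RefSeq annotation, both on the plus strand of chromosome 6. TRBD1 lies at chr6:41533201-41533212 and TRBD2 at chr6:41542163-41542176, which leaves 8950 bases between them. Capitals mark the base at which they differ.
TRBD1: gggacAgggggc
TRBD2: gggacTgggggggc
Counted from 1 at the 5′ end, the difference is A6T. TRBD1 has 12 bases with a run of 5 G after position 6, and TRBD2 has 14 bases with a run of 7 G. A fragment of the first 5 bases, or of the G run alone up to the length of the shorter run, is therefore the same in both. The start of the first TRBJ1 segment lies 651 bases beyond TRBD1, TRBD2 lies 6475 bases beyond the last TRBJ1 segment, and the first TRBJ2 segment starts 577 bases beyond TRBD2. The order on the chromosome was thus TRBD1, TRBJ1, TRBD2, TRBJ2.

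Clonotypes from the files show the D bases as they were aligned. The next 3 were each the most abundant with at least 9 aligned germline bases in a combination that the locus order allows, a choice added after values were seen. Capitals mark the bases aligned to the D segment or to its palindromic flank, and percentages are of the UMIs in the library.
TRBD1 with TRBJ1-1 and TRBV13-2, KO 3 spleen: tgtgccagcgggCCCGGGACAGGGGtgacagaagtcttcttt
TRBD1 with TRBJ2-7 and TRBV16, WT 1 spleen: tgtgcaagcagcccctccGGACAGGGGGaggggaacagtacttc
TRBD2 with TRBJ2-7 and TRBV13-3, WT 1 spleen: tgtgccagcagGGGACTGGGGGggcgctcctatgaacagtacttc
The TRBD1-TRBJ1-1 clonotype held 1.63% of its library (95% Wilson interval 1.58 to 1.69%) and the TRBD1-TRBJ2-7 clonotype 1.75% (1.52 to 2.01%). The TRBD2-TRBJ2-7 clonotype held 16.7% (16.1 to 17.4%) in the spleen and 2.51% (2.25 to 2.81%) in the mLN of the same mouse. It was also the most abundant TRBD2-TRBJ2 clonotype of any mouse without the requirement on germline bases. Intervals cover counting error only. In all 3 the alignment runs across position 6, the base that tells the segments apart. The TRBD1-TRBJ2-7 clonotype is out of frame.

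The most abundant clonotype without the requirement on germline bases was different for TRBD1. These 2 sequences are shown because they carry fewer D bases.
TRBD1 with TRBJ1-1 and TRBV13-1, KO 1 mLN: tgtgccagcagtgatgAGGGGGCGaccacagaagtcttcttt
TRBD1 with TRBJ2-4 and TRBV13-2, WT 3 mLN: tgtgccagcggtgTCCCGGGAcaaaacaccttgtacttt
The first held 5.41% of its library (5.13 to 5.71%) and covers position 6. The second held 7.18% (6.99 to 7.38%), stops before position 6, and was listed with equal scores for TRBD1 and TRBD2. It was counted as TRBD1 because TRBD1 stood first.

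The most abundant TRBD2-TRBJ1 clonotype of each mouse shows what stood behind the calls that the locus order does not allow.
TRBJ1-2 with TRBV13-3, WT 1 mLN: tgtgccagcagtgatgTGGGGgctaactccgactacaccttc
TRBJ1-6 with TRBV31, WT 3 spleen: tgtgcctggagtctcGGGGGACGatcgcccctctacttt
TRBJ1-3 with TRBV13-2, WT 4 spleen: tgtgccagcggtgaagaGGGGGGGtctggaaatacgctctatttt
TRBJ1-3 with TRBV13-1, KO 1 mLN: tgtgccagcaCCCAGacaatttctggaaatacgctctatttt
TRBJ1-4 with TRBV13-2, KO 2 mLN: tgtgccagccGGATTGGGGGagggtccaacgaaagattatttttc
TRBJ1-3 with TRBV13-1, KO 3 spleen: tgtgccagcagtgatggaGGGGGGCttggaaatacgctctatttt
Between 0 and 10 germline bases were aligned in these 6 clonotypes. In the KO 1 clonotype, the largest at 3.04% of its library (2.83 to 3.27%), all 5 aligned bases lay in the palindromic flank and none in the D segment itself. The WT 3, WT 4 and KO 3 clonotypes matched only bases 3′ of position 6. The WT 1 clonotype covered position 6 with 5 bases. The KO 2 clonotype covered it with 10 bases, 1 of which was a mismatch, and the WT 3 alignment also held a mismatch. The other 5 shares ran from 0.0834% (0.0453 to 0.154%) in WT 1 to 0.640% (0.617 to 0.664%) in WT 4.

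Depth was uneven. Library totals ran from 2488 to 493287 UMIs, and the clonotypes with at least 2 UMIs numbered 190 to 5008 per library. In 5 libraries, those of WT 1 and KO 1 and the KO 3 mLN, 31.0 to 41.8% of all clonotypes had a single UMI, against 66.5 to 84.2% in the other 7, and every one of the 5 was shallower than every one of the 7. The smallest library, the KO 3 mLN, stood apart: 50% of its clonotypes had a CDR3 found in another mouse and 47.9% one found in KO 2, whereas 3.26 to 13.2% of clonotypes in the other 11 libraries were found in another mouse. The sharing between KO 2 and KO 3 was not limited to this library: 8.98% of clonotypes in the KO 3 spleen were found in KO 2, against 0.342 to 2.71% in the WT and KO 1 libraries, and 13.2% of those in the KO 2 mLN were found in another mouse, against 3.26% in the KO 2 spleen. The source of this sharing was not tested.

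The segments took near-constant shares of the clonotypes. TRBD1 made up 39.5 to 42.7% of clonotypes across the 12 libraries, TRBD2 28.4 to 31.0%, and clonotypes with no D call 27.5 to 32.1%. In every library TRBD1 was listed more often than TRBD2, which was in turn within a few points of the share with no call. The order of TRBD1 and TRBD2 depends on 1803 calls with equal scores for both, all listed with TRBD1 first. Counting these as TRBD2 would put TRBD2 ahead in the total over all libraries, while leaving them out would not. By UMIs the shares spread further, from 32.4 to 43.9% for TRBD1 and from 22.4 to 37.9% for TRBD2. TRBD1 clonotypes divided almost evenly between the clusters, with 5182 in TRBJ1 and 5452 in TRBJ2. TRBD2 clonotypes did not, with 507 in TRBJ1 and 7193 in TRBJ2, so that 93.4% of them lay in the cluster TRBD2 precedes. Counted as distinct CDR3 sequences over all libraries, TRBD1 had 3746 in TRBJ1 and 3941 in TRBJ2, and TRBD2 had 369 and 5232.

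The share of TRBD2 among D-called clonotypes was 48.1 percentage points higher in TRBJ2 than in TRBJ1 clonotypes. Averaged over both organs of a mouse, it was 56.8% ± 1.40 (SD, n = 6 mice) in TRBJ2 and 8.71% ± 2.06 in TRBJ1. The TRBJ2 value was 57.8, 57.1 and 57.7% in the WT mice 1, 3 and 4, against 54.6, 55.6 and 58.1% for KO mice 1, 2 and 3. The TRBJ1 values were 9.42, 7.78 and 9.31% in the WT mice and 11.1, 9.58 and 5.10% in the KO mice. The ranges were far apart, and the difference was 43.5 to 53.0 points within single mice. A two-sided exact sign-flip permutation test over the 6 mice gave p = 0.031, the smallest that its 64 sign patterns allow. The locus order sets this direction beforehand, so the p-value is no evidence for it and the size of the difference is a description. Benjamini-Hochberg adjustment over a family of 14 such tests gave 0.0547, and 0.0781 over the 10 that remain without glycine and N content, which the D call itself reads. No other result of this family passed 0.05 either. Without the KO 3 mLN the difference was 47.6 points.

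The split held library by library. The TRBD2 share of D-called TRBJ1 clonotypes in the spleen was 10.1, 8.21 and 9.24% in WT 1, 3 and 4 and 11.8, 9.49 and 7.64% in KO 1, 2 and 3. In the mLN it was 8.77, 7.34 and 9.39% in WT and 10.4, 9.68 and 2.56% in KO, where the last value is 1 of 39 clonotypes. Half-widths of the 95% Wilson intervals ran from 1.61 to 6.36 points. The KO 3 mLN was thus the one low library, and its interval, 0.454 to 13.2%, spans all the others. For TRBJ2 clonotypes the spleen values were 58.2, 57.3 and 57.2% for WT, against 55.2, 55.4 and 57.3% for KO. The mLN values were 57.5, 56.9 and 58.2% in WT and 54.0, 55.8 and 58.9% in KO, with half-widths of 1.94 to 9.96 points in the 12 libraries. Every TRBJ2 value lay above every TRBJ1 value.

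**Figure D1:**
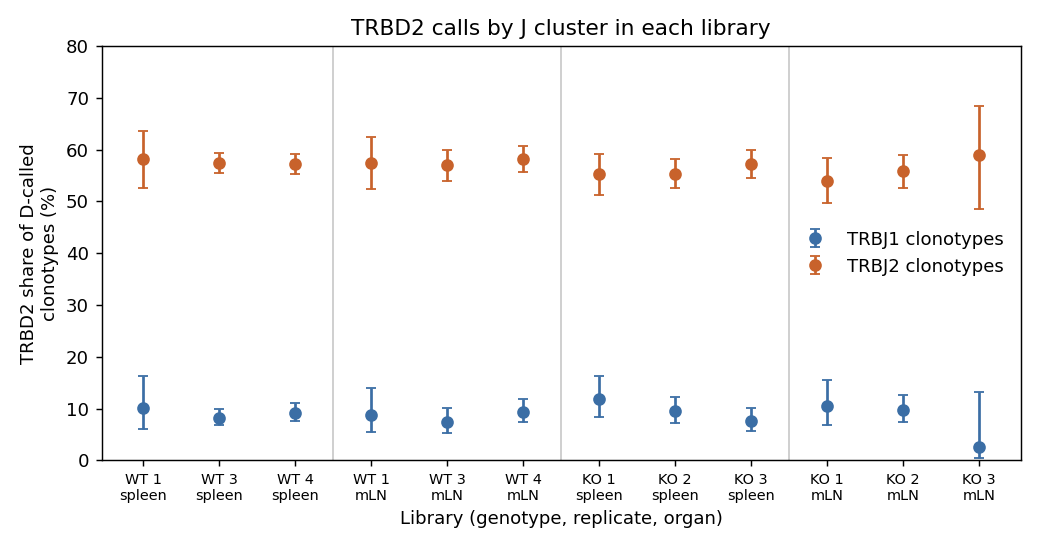
TRBD2 share of D-called clonotypes (y axis, percent) in each of the 12 libraries (x axis, by genotype, replicate and organ), with blue points for TRBJ1 and orange points for TRBJ2 clonotypes and bars for 95% Wilson intervals. All orange points lie between 54.0 and 58.9%, and all blue points between 2.56 and 11.8%, with the widest bars in the KO 3 mLN.

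Clonotypes with no D call were also unevenly spread. They made up 24.8% ± 1.01 of TRBJ2 clonotypes and 36.2% ± 1.88 of TRBJ1 clonotypes (SD, n = 6 mice), a difference of -11.4 points that was negative in 6 of 6 mice (exact sign-flip permutation p = 0.031, adjusted p = 0.0547). The TRBJ1 values were 34.8, 37.3 and 35.6% in WT 1, 3 and 4 and 36.3, 33.9 and 39.2% in KO 1, 2 and 3. The TRBJ2 values were 24.1, 23.8 and 24.6% for WT, against 24.5, 24.7 and 26.7% for KO. The lowest TRBJ1 value was above the highest TRBJ2 value. The same alignment gives the call and its absence, so this difference and the preceding one are not separate measurements.

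The TRBD2 share of calls with TRBJ1 fell only at the longest D matches. The aligner gave a score of 5 per matched base, so a score of 25 is 5 matched bases. TRBD2 took 10.6% of the 1397 D calls in TRBJ1 clonotypes with scores of 25 to 29, 11.7% of those with 30 to 34, 11.7% with 35 to 39 and 10.1% with 40 to 44. It took 3.66% of the 519 calls with scores of 45 to 49, and 8 of the 839 calls with a score of 50 or more, which is 0.954%. In TRBJ2 clonotypes the share went the other way, with 27.2, 42.1, 55.1, 62.7, 65.4 and 75.9% over the same steps. The last step held 2719 TRBD2 calls of 3580. By mouse, the share at scores of 50 or more was 0.858% ± 0.726 in TRBJ1 and 76.1% ± 4.5 in TRBJ2 (SD, n = 6 mice). These are descriptions of the calls, since the score decided them.

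**Figure D2:**
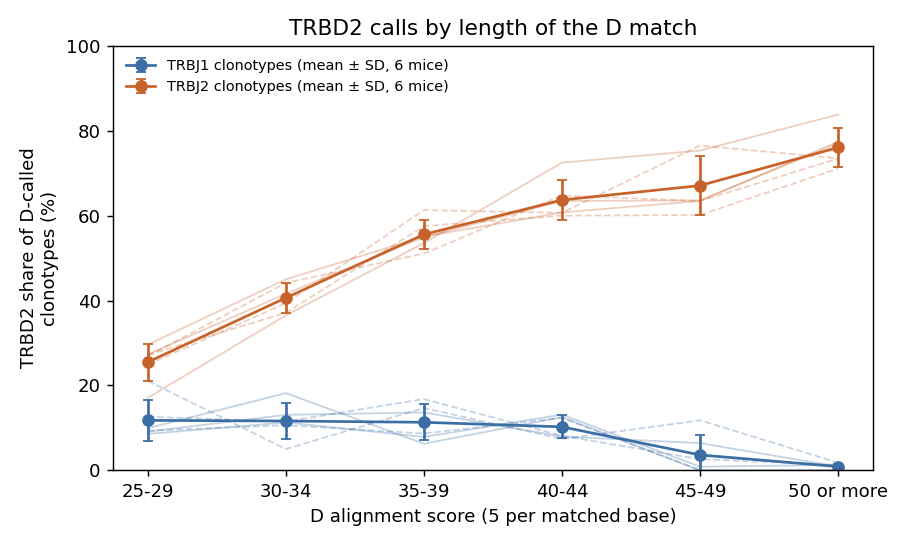
TRBD2 share of D-called clonotypes (y axis, percent) by D alignment score (x axis), for TRBJ1 (blue) and TRBJ2 (orange) clonotypes. Points with bars are the mean ± SD of 6 mice, thin lines are single mice (solid WT, dashed KO). The orange mean goes from 25.5% at scores of 25 to 29 to 76.1% at 50 or more, the blue mean from 11.8 to 0.858%.

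The part of the D segment that was aligned differed in the same way. Position 6 was covered in 88.7% of TRBD2-TRBJ2 calls but in 45.8% of TRBD2-TRBJ1 calls. A further 37.3% of the TRBD2-TRBJ1 calls rested only on bases 3′ of position 6, that is the G run and the last base, and 16.2% only on the palindromic flank, against 10.4 and 0.918% of TRBD2-TRBJ2 calls. TRBD1 calls covered position 6 in 88.9% of TRBJ1 and 81.3% of TRBJ2 clonotypes. Seen from the J cluster, among calls in which position 6 was covered TRBD2 took 232 of 4840 (4.79%) in TRBJ1 and 6378 of 10811 (59.0%) in TRBJ2. Among calls resting on the 3′ bases alone it took 46.3% in TRBJ1 and 61.7% in TRBJ2, which are closer together. In the few calls on the flank alone it took 70.7% of 116 and 53.2% of 124.

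The extent of the match also differed. The median alignment was 9 bases for TRBD2-TRBJ2 and 7 bases for the other 3 combinations. At least 9 germline bases were aligned in 3633 of the TRBD2-TRBJ2 calls (50.5%), in 23.7% of TRBD1-TRBJ1 calls, in 23.0% of TRBD1-TRBJ2 calls, and in 27 of the TRBD2-TRBJ1 calls (5.33%). The longest germline match was 14 bases, the entire segment, for TRBD2-TRBJ2, 12 bases, also the entire segment, for TRBD1 with either cluster, and 11 bases for TRBD2-TRBJ1. Along TRBD2, position 8 was the one most often covered in either cluster, in 96.3% ± 0.887 of TRBJ2 and 77.8% ± 1.67 of TRBJ1 calls (SD, n = 6 mice). The clusters lay furthest apart at position 5, covered in 79.4% ± 0.919 of TRBD2-TRBJ2 and 15.3% ± 4.60 of TRBD2-TRBJ1 calls. Position 4 was covered in 55.9% ± 1.22 of TRBD2-TRBJ2 and 8.08% ± 2.83 of TRBD2-TRBJ1 calls. From position 12 on the coverage was alike, with 52.0 and 49.2% at position 12. Along TRBD1 both clusters gave nearly the same profile, with a peak at position 6 of 88.2% ± 2.89 in TRBJ1 and 81.2% ± 2.60 in TRBJ2. The last base was the one most rarely covered in TRBD1, in 11.4% of TRBJ1 and 15.3% of TRBJ2 calls.

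**Figure D3:**
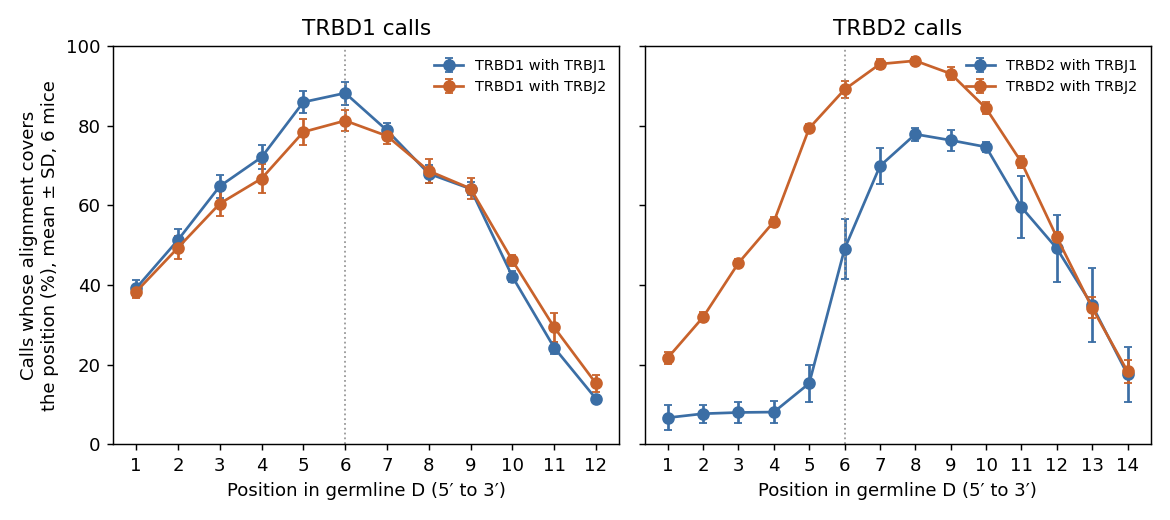
Share of calls whose alignment covers each germline position (y axis, percent, mean ± SD of 6 mice) along TRBD1 (left) and TRBD2 (right), with position counted from the 5′ end on the x axis, blue for TRBJ1 and orange for TRBJ2 clonotypes, and a dotted line at position 6. TRBD1 profiles nearly coincide, while TRBD2-TRBJ1 calls stay at 8.08% or less over positions 1 to 4, where TRBD2-TRBJ2 calls climb to 55.9%.

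In 1803 calls TRBD1 and TRBD2 had equal scores, and every one of these ties listed TRBD1 first. They made up 13.0% of TRBD1-TRBJ1 and 20.7% of TRBD1-TRBJ2 calls, so the TRBD1 count in TRBJ2 clonotypes includes sequences that could be either. Leaving ties out moved the TRBD2 share to 9.97% ± 2.41 in TRBJ1 and 62.3% ± 2.33 in TRBJ2 (SD, n = 6 mice). Giving all ties to TRBD2 moved it to 21.0% ± 4.41 and 65.6% ± 2.71. Counting only the 14982 calls that named 1 gene gave 9.03% ± 2.42 and 63.6% ± 3.17. A score of at least 40 gave 4.45% ± 1.41 in TRBJ1 and 70.8% ± 4.40 in TRBJ2. Depending on how tied calls and calls naming both genes were treated, the TRBD2 share of TRBJ2 clonotypes thus lay between 56.8 and 65.6%. That of TRBJ1 clonotypes lay between 8.71 and 21.0%. The score cut is not such a treatment alone, since it selects long matches, which TRBD2-TRBJ2 calls had most often. Of 18493 distinct CDR3 sequences, 2 received more than 1 kind of D call in different libraries. Calls read the CDR3 bases themselves, and a sequence in 1 library cannot differ, so this count does not gauge error.

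Each J segment followed its cluster. Among TRBJ1 segments the TRBD2 share of D-called clonotypes averaged 7.07% ± 3.95 in TRBJ1-2, the lowest, to 11.4% ± 4.69 in TRBJ1-3, the highest (SD, n = 6 mice), and these neighbours overlapped from mouse to mouse. Among TRBJ2 segments 5 lay between 55.6% ± 4.48 (TRBJ2-5) and 60.2% ± 5.46 (TRBJ2-7). TRBJ2-2 stood lower at 45.6% ± 8.42, with 42.2, 37.0 and 43.9% in WT 1, 3 and 4 and 42.3, 46.4 and 61.6% in KO 1, 2 and 3. The KO 3 value averages 38 of 79 clonotypes in the spleen (48.1%) with 3 of 4 in the mLN. It was below the TRBJ2 cluster value of the mouse in 5 of 6 mice, and in KO 3 it was below it in the spleen alone. The no-call share was highest in TRBJ1-3, at 45% ± 7.46, and lowest in TRBJ2-1, at 19.1% ± 2.94. No test was made between single J segments. Within the TRBJ2 cluster, TRBJ2-7 was the segment most used by both D segments, by 24.6% ± 2.98 of TRBD1 and 28.2% ± 2.66 of TRBD2 clonotypes, whereas TRBJ2-2 took 9.63% ± 2.65 of the TRBD1 and 5.86% ± 0.984 of the TRBD2 clonotypes.

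**Figure D4:**
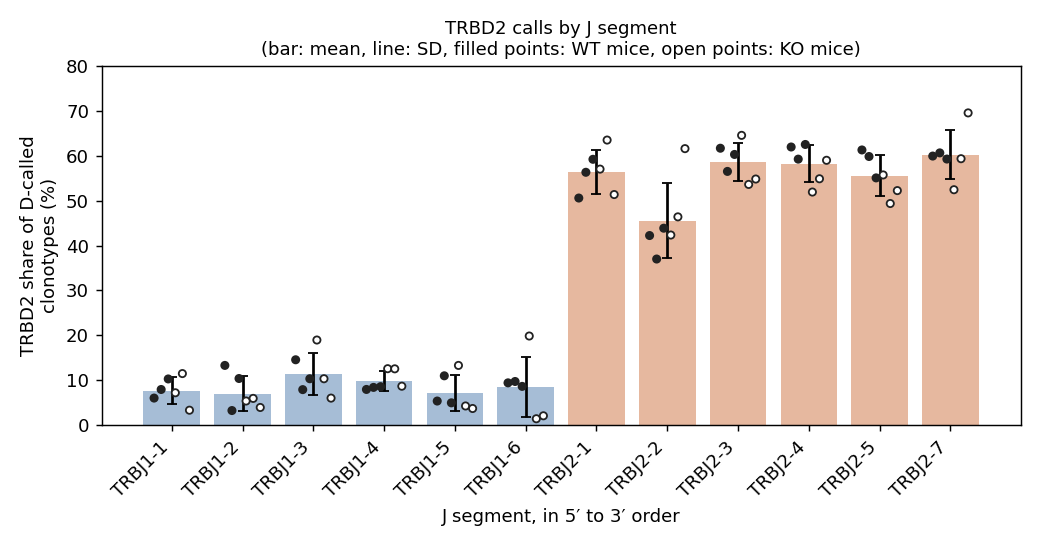
TRBD2 share of D-called clonotypes (y axis, percent) for the 12 J segments in chromosomal order (x axis). Bars are means and lines SDs over 6 mice, filled points WT and open points KO mice. The TRBJ1 bars stand at 7.07 to 11.4% and the TRBJ2 bars at 45.6 to 60.2%, with TRBJ2-2 the lowest of its cluster.

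In the TRBJ2 cluster, which both D segments can join, TRBD2 clonotypes had longer CDR3s. Their mean length was 43.3 nucleotides ± 0.224 against 41.6 ± 0.201 for TRBD1 (SD, n = 6 mice), a difference of 1.76 nucleotides that was positive in 6 of 6 mice (exact sign-flip permutation p = 0.031, adjusted p = 0.0547). Within single mice it was 2.10, 2.06 and 1.80 nucleotides in WT 1, 3 and 4 and 1.61, 1.73 and 1.23 in KO 1, 2 and 3. The 2 ranges of means did not overlap. The segments themselves differ by 2 bases. The D call reads the same bases and every tied call counted as TRBD1, so that length and call are not fully independent. The p-value therefore does not measure length apart from the call. Over the alternatives the difference ran from 1.05 nucleotides (score of at least 40) to 2.07 (weighted by UMIs). In the TRBJ1 cluster the difference was smaller than the spread between mice. The TRBD2 calls measured 42.1 ± 0.621 and the TRBD1 clonotypes 42.3 ± 0.200 nucleotides, a difference of -0.268 that was positive in 2 of 6 mice (p = 0.4375 by the same exact permutation test). It was -0.0677 without KO 2 and -0.512 without WT 1. The length difference itself was 2.06 nucleotides larger in TRBJ2 than in TRBJ1 clonotypes in libraries that had both, positive in 6 of 6 mice (exact permutation p = 0.031, adjusted p = 0.0625 over 6 measures). The median length was 42 nucleotides for each D-called class and 39 for clonotypes with no D call in either cluster.

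CDR3 composition differed as well. Glycine, which the G runs encode, made up 14.4% ± 0.305 of CDR3 residues in TRBD2-TRBJ2 and 10.6% ± 0.368 in TRBD1-TRBJ2 clonotypes (SD, n = 6 mice), a difference of 3.79 points. Within mice the difference was 4.18, 3.74 and 3.97 points in WT 1, 3 and 4 and 4.02, 3.86 and 2.97 points in KO 1, 2 and 3. In the TRBJ1 cluster glycine made up 12.9% ± 1.09 with TRBD2 and 10.4% ± 0.370 with TRBD1 calls. TRBD1 values lay close together in both clusters, and TRBD2 calls were the richer in glycine in every mouse. The number of N nucleotides, V-D and D-J insertions together, was 2.59 ± 0.0668 in TRBD2-TRBJ2 and 2.71 ± 0.0821 in TRBD1-TRBJ2 clonotypes, and 2.18 ± 0.302 against 2.59 ± 0.122 in the TRBJ1 cluster. It was lower with TRBD2 in 6 of 6 mice in both clusters. In the TRBJ1 cluster this direction turned when clonotypes of 1 UMI were included or clonotypes were weighted by UMIs, to differences of 0.439 and 0.133. The D call uses these very bases, so glycine and N content are descriptions of the members, and the sign-flip tests computed for them support nothing.

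**Figure D5:**
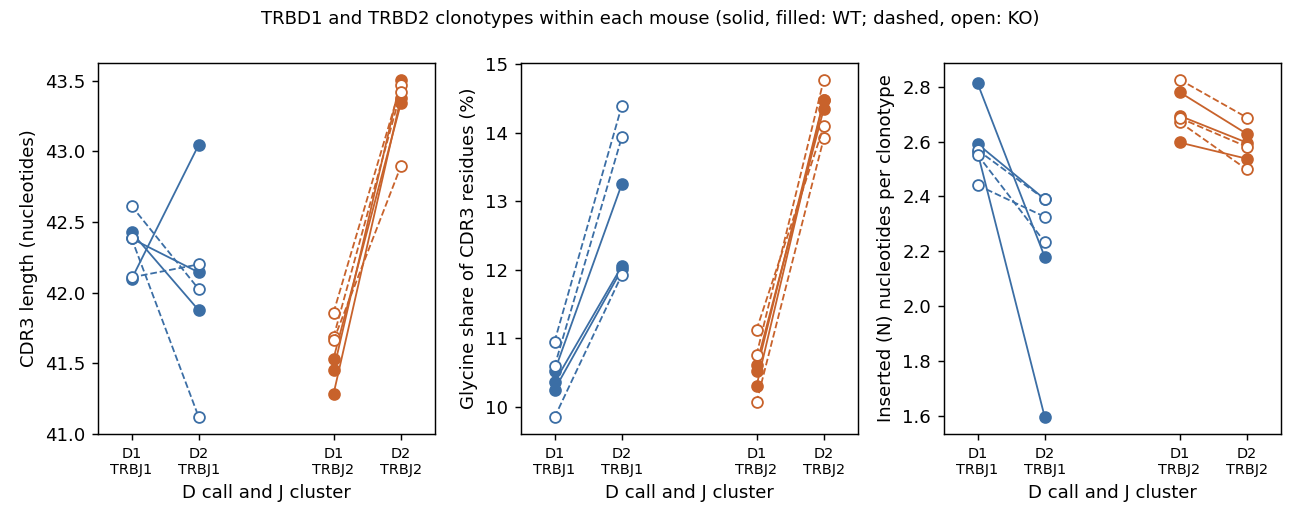
Mean CDR3 length (left, nucleotides), glycine share of CDR3 residues (middle, percent) and N nucleotides per clonotype (right) on the y axes, for TRBD1 and TRBD2 calls in each J cluster on the x axes. Each line joins the values of 1 mouse, solid with filled points for WT and dashed with open points for KO, blue for TRBJ1 and orange for TRBJ2. The orange length lines all climb, by 1.23 to 2.10 nucleotides, while blue length lines go in both directions. The y axes do not start at 0.

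All 3 reading frames of both D segments are open. In TRBD1 they encode glycine-threonine-glycine-glycine (frame 1), glycine-glutamine-glycine (frame 2) and aspartate-arginine-glycine (frame 3), and in TRBD2 glycine-threonine-glycine-glycine, glycine-leucine-glycine-glycine and aspartate-tryptophan-glycine-glycine. In-frame here means a CDR3 of whole codons without a stop codon. In-frame TRBD2-TRBJ2 clonotypes with at least 5 germline bases used the frames at 35% ± 1.90, 32.2% ± 1.28 and 32.9% ± 1.31 (SD, n = 6 mice). In-frame TRBD1-TRBJ2 clonotypes used them at 33.1% ± 1.52, 33.9% ± 2.97 and 33.0% ± 2.27. Frames were thus near even for either segment in this cluster. In-frame TRBD1-TRBJ1 clonotypes used frame 3 less, at 26.5% ± 1.49, with 37.4% ± 3.80 in frame 1 and 36.1% ± 3.15 in frame 2. In the 750 out-of-frame TRBD1-TRBJ1 clonotypes frame 3 stood at 33.3% ± 4.51. Frame use was described without a test. The share in frame by this definition was 82.8% in TRBD1-TRBJ1, 85.0% in TRBD1-TRBJ2, 82.1% in TRBD2-TRBJ1 and 85.2% in TRBD2-TRBJ2 clonotypes.

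TRBD1 and TRBD2 clonotypes did not differ detectably in size within the TRBJ2 cluster. The mean log2 UMI count was 2.99 ± 0.314 for TRBD2 and 3.08 ± 0.278 for TRBD1 (SD, n = 6 mice), a difference of -0.09 (exact sign-flip permutation p = 0.28125, adjusted p = 0.328), positive in 2 of 6 mice. In the TRBJ1 cluster it was 2.92 ± 0.536 against 3.15 ± 0.352, a difference of -0.23 (p = 0.21875 by the same exact permutation test, adjusted p = 0.306). In both clusters the SD between mice was larger than the difference.

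Sharing between organs and mice was compared next. Of TRBD2-TRBJ2 clonotypes 58.4% ± 4.77 were found in the other organ of the mouse, and of TRBD1-TRBJ2 clonotypes 61.2% ± 6.76 (SD, n = 6 mice), a difference of -2.80 points (exact permutation p = 0.09375, adjusted p = 0.146), which was -3.17 points without the KO 3 mLN. In the TRBJ1 cluster the values were 52.6% ± 25 and 53.1% ± 22.9, where the spread came from KO 3, with 2.33 and 6.92% against 55.2 to 67.6% in the other mice. Fewer than 5 TRBD2-TRBJ1 clonotypes were available in the KO 3 mLN, so the KO 3 values for this cluster come from its spleen alone. Without that library, which leaves no other organ to compare in KO 3, the TRBJ1 means were 62.6% for TRBD2 and 62.3% for TRBD1 (n = 5 mice). Clonotypes found in another mouse made up 10.2% ± 10.7 of TRBD2-TRBJ2 and 9.60% ± 10.2 of TRBD1-TRBJ2 clonotypes (exact permutation p = 0.28125), with KO 3 at 31.8 and 30% and the other mice between 3.30 and 8.65%. Without the KO 3 mLN, KO 3 stood at 10.7 and 8.62%, and the means were 6.64% ± 2.66 and 6.03% ± 2.49.

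In the TRBJ1 cluster a smaller share of the TRBD2 calls was found in other mice. Of them 1.30% ± 1.12 were found in another mouse, against 6.05% ± 2.39 of the TRBD1 clonotypes (SD, n = 6 mice), a difference of -4.75 points. The TRBD2 values were 0, 2.56 and 1.80% in WT 1, 3 and 4 and 0, 1.11 and 2.33% in KO 1, 2 and 3. The TRBD1 values were 4.72, 3.87 and 4.21% in WT and 5.71, 7.79 and 10% in KO. TRBD2 was lower in 6 of 6 mice, and the ranges did not overlap (exact sign-flip permutation p = 0.031, adjusted p = 0.0547). WT 1 had 29 TRBD2-TRBJ1 clonotypes and KO 1 had 50 over both organs, so single clonotypes move these shares. If all were independent, the counts of 0 would allow up to 10.3 and 6.0% in these mice. On average 55.2% (WT 1) and 66.7% (KO 1) of them were also in the other organ, so the true bounds are wider. The KO 2 and KO 3 values include the sharing between these mice described with the library depths. With KO 2 left out altogether, as a mouse and as a source of matches, the difference was -2.58 points, and with KO 3 left out it was -3.04 points, both negative in 5 of 5 mice. When each library was drawn down to 2488 UMIs it was -1.34 points (adjusted p = 0.146 by the same exact permutation test).

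No genotype difference in the shares of D calls could pass 0.05 in the exact permutation test used for them. With 3 WT and 3 KO mice the exact two-sided permutation test has 20 assignments and cannot go below p = 0.1. In the spleen, the TRBD2 share of TRBJ2 clonotypes was 56.0% ± 1.15 in KO and 57.6% ± 0.528 in WT (SD, n = 3), a difference of -1.62 points (exact permutation p = 0.2, adjusted p = 0.9 over 6 tests). In the mLN it was 56.2% ± 2.46 in KO and 57.5% ± 0.614 in WT, a difference of -1.29 points (exact permutation p = 0.5). KO 1 and KO 2 lay below every WT library in both organs, while KO 3 lay within the WT range in the spleen and above it in the mLN. Without the KO 3 mLN the mLN difference was -2.62 points (exact permutation p = 0.2, the smallest possible with 2 KO mice). Without KO 1 it was -0.182 points (exact permutation p = 1). Under stricter rules for the D call the mLN difference was -3.23 (ties left out), -4.62 (1 gene named) and -6.02 points (score of at least 40). Each had p = 0.1 by the exact permutation test, adjusted p = 0.6. In the spleen these rules gave -2.93, -3.89 and -4.14 points (exact permutation p = 0.3, 0.2 and 0.4). The mLN difference turned to 3.20 with a minimum of 10 UMIs and to 0.286 weighted by UMIs. Among libraries with many single-UMI clonotypes the difference was -0.955 points in the spleen (2 KO, 2 WT) and -1.74 points in the mLN (1 KO, 2 WT). Among those with few it was -2.97 points (1 of each) and -1.04 points (2 KO, 1 WT).

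The TRBD2 share of TRBJ1 clonotypes, the gauge of misassignment, overlapped between the genotypes in both organs. It was 9.63% ± 2.07 in KO and 9.17% ± 0.934 in WT spleens (SD, n = 3, difference 0.458 points, exact permutation p = 0.8) and 7.55% ± 4.34 against 8.5% ± 1.05 in the mLN (difference -0.949 points, exact permutation p = 1). Without the KO 3 mLN the mLN difference turned to 1.55 points. Within the kinds of library it was 1.69 (few) and -0.160 (many) points in the spleen and -2.28 (few) and 1.31 (many) points in the mLN. The share with no D call was 28.7% ± 1.17 in KO and 28.2% ± 0.329 in WT spleens (exact permutation p = 0.6), and 29.5% ± 2.28 and 28.4% ± 0.784 in the mLN (exact permutation p = 0.6). Without the KO 3 mLN its mLN difference turned from 1.09 to -0.217 points, and within kinds it was 2.35 (few) and -0.369 (many) points. In the spleen the no-call difference of 0.495 points was 0.622 (few) and 0.431 (many) points within kinds.

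Spleen and mLN were compared within mice. Across the 6 mice the TRBD2 share of TRBJ2 clonotypes was 56.9% ± 1.76 in the mLN and 56.8% ± 1.20 in the spleen, a difference of 0.112 points ± 1.07 (SD of the difference, n = 6, exact sign-flip permutation p = 0.8125). The TRBD2 share of TRBJ1 clonotypes was 8.03% ± 2.87 in the mLN and 9.40% ± 1.46 in the spleen, a difference of -1.37 points ± 1.94 (p = 0.12 by the same exact permutation test, adjusted p = 0.375 over 3 tests). It was negative in 4 of 6 mice, and leaving out KO 3 brought it to -0.634 points. The share with no D call differed by 0.488 points ± 1.16 (exact permutation p = 0.375), and by 0.137 points without KO 3. The organ difference itself did not separate KO from WT mice for any of the 3 shares, with exact permutation p = 0.8 for TRBD2 in TRBJ2, 0.5 for TRBD2 in TRBJ1 and 0.7 for no call.

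The UMIs of the 36 combinations of TRBD1, TRBD2 or no D call with 12 J segments were also tested, with edgeR's quasi-likelihood test and Benjamini-Hochberg adjustment over all 36. None was called in KO against WT spleens, in KO against WT mLN, or in mLN against spleen within mice, which is 0% of the combinations in each comparison. In each, 1 combination had an unadjusted p under 0.05. DESeq2 called 1 in the spleen and 0 in the other 2, with 3, 2 and 0 at an unadjusted p under 0.05 in the same order. Of the 12 TRBD2 combinations 5 were higher in KO in either organ, and 8 were higher in the mLN. The TRBD2 values of log2 fold change (KO over WT) in the spleen ran from -2.34 for TRBJ1-6 to 0.88 for TRBJ1-3, and in the mLN from -2.20 for TRBJ1-5 to 2.32 for TRBJ1-3. The extremes in both organs were TRBD2-TRBJ1 combinations, most of which hold few UMIs. TRBD2 with TRBJ1-3 in the mLN held 1.71% ± 2.89 of UMIs in KO and 0.345% ± 0.414 in WT (SD, n = 3). It had 1173 UMIs in the KO 1 mLN, 109 in KO 2 and 0 in KO 3. Of those in KO 1, 722 belonged to 1 clonotype, the KO 1 sequence shown above. TRBD1 combinations ran from -1.07 (TRBJ1-5) to 0.94 (TRBJ2-3) in the spleen and from -0.74 (TRBJ2-4) to 0.69 (TRBJ2-3) in the mLN. Between organs, TRBD2 combinations ran from -0.46 to 0.50 and TRBD1 combinations from -0.31 to 0.30. In counts simulated for these libraries, this test recovered 25% of combinations changed by 4-fold in either organ, and 96.7% (spleen) and 85% (mLN) of those changed by 16-fold, so that smaller differences could have gone undetected.

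The combination with the smallest p was not a TRBD1 or TRBD2 one. TRBJ1-5 clonotypes with no D call held 0.165% ± 0.0517 of UMIs in KO and 0.844% ± 0.550 in WT spleens (SD, n = 3), a log2 fold change of -2.36 (edgeR adjusted p = 0.749, DESeq2 adjusted p = 0.0461), and 0.122% ± 0.117 against 0.901% ± 0.554 in the mLN (log2 fold change -2.73, edgeR adjusted p = 0.715, DESeq2 adjusted p = 0.0670). KO and WT libraries did not overlap in either organ, which held for 5 of the 36 combinations in the spleen (13.9%) and 3 of 36 in the mLN (8.33%). In the spleen the highest KO value, 0.218%, and the lowest WT value, 0.222%, lay side by side. Counted as clonotypes in place of UMIs, the spleen log2 fold change was -0.40. Between organs the smallest p belonged to TRBJ2-5 with no D call, at 4.32% ± 3.06 in the mLN and 2.64% ± 0.745 in the spleen (SD, n = 6, log2 fold change 0.54, edgeR adjusted p = 0.714).

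Over the 12 libraries, 37 V and J segments were ranked by how their share of clonotypes rose with that of TRBD1 or TRBD2. The highest for TRBD1 were TRBV14 (Spearman rho 0.68), TRBV29 (0.47) and TRBJ2-2 (0.41). For TRBD2 the highest were TRBV13-3 (0.67), TRBJ1-5 (0.62) and TRBV1 (0.50). The most negative values were of similar size, -0.64 for TRBD1 (TRBJ2-1) and -0.77 for TRBD2 (TRBV17). The points share mice and depth, since each mouse gave 2 libraries, and the shares of TRBD1 and TRBD2 varied by only a few points.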

How the data were processed

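TCR beta libraries from RNA of donor CD4+ T cells (12 libraries, 6 recipients) were analyzed. According to the study's methods, the authors primed cDNA in the beta constant region, added UMIs by 5′ RACE, sequenced on a MiSeq instrument, collapsed UMIs with MIGEC and aligned V, D and J segments with MiXCR at default parameters. Versions and the segment reference are not given in the sources used here. The deposited clone counts are whole numbers, read here as UMIs, and the deposited clone fraction is each count over its library total. The authors' downsampling was not found in the deposited tables, whose totals differ. D calls, scores and alignments were copied from the deposited tables, so misassignment and merged clonotypes made upstream remain in them.

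The D segment was the first gene listed and the J cluster that of the first J gene, for clonotypes of at least 2 UMIs. The 16998 D alignments free of mismatches all matched GRCm38 germline TRBD1 or TRBD2 or its palindromic flank, and 1336 held a mismatch or gap. Each clonotype counted once. Shares of D calls were computed per library and averaged per mouse over both libraries whatever their number of clonotypes. Properties of TRBD1 and TRBD2 clonotypes used libraries with at least 5 clonotypes of each class. They were compared by exact permutation tests (scipy 1.17.1) with Benjamini-Hochberg adjustment in families of 6 (genotype), 3 (organ) and 14 (J cluster and D segment, glycine and N content included). UMIs of D-J combinations (10 or more UMIs in 3 or more libraries) were tested with edgeR 4.0.16, with library totals, and DESeq2 1.42.0 as an alternative. The edgeR test was tested on simulated data. Wilson intervals (95%) cover counting error only. The most abundant clonotypes, every D-J combination by range and the one with the smallest p per comparison were the sequences and segments to be named. Members, lists and tests were chosen with earlier results of these data known.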

Additional observations from a re-analysis of the deposited data

Results flagged for a closer look

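Of 17 sets of 6 mouse values examined with Dixon's criterion, 2 held a mouse that stood apart, both times KO 3; about 1 set in 20 is expected by chance. In KO 3 the TRBD2 share of D-called TRBJ1 clonotypes was -5.07 percentage points in the mLN relative to the spleen, against -1.35 to 0.190 in the other 5 mice. Its mLN value rests on 1 of 39 clonotypes in the smallest library. In KO 3 the glycine share of CDR3 residues was 2.97 points higher with TRBD2 than with TRBD1 in TRBJ2 clonotypes, against 3.74 to 4.18 points in the others. Without the KO 3 mLN the mean difference over mice was 4.02 points in place of 3.79. The part of library size and of the sharing with KO 2 in these values was not tested.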

How the results depend on the processing

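Over 508 alternative values for 29 results, 442 kept their direction and side of the threshold, 55 turned and 11 passed it. The 4 results at the smallest sign-flip p other than glycine and N content, the TRBD2 share by J cluster among them, kept their direction in all 78 alternatives. N nucleotides in TRBJ1, TRBD2 minus TRBD1, turned to 0.439 with a minimum of 1 UMI and 0.133 weighted by UMIs. The TRBD2 share, TRBJ2 minus TRBJ1, ranged from 44.6 to 66.4 points. The cause of the turns was not tested, and 44 of the 55 were in genotype or organ differences, none of which passed in any alternative.

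KO minus WT in the spleen, TRBD2 in TRBJ1 was -0.989 (minimum 1 UMI), -0.159 (score of at least 40), -0.715 (2488 UMIs drawn), -0.0377 (ties left out) and -3.62 (ties to TRBD2), and no D call -0.204 (1 gene named), -2.06 (score), -0.708 (drawn), -0.0642 (ties left out) and -0.0702 (position 6 covered). In the mLN, TRBD2 in TRBJ2 was 3.20 (minimum 10 UMIs) and 0.286 (weighted), TRBD2 in TRBJ1 1.18 (minimum 10 UMIs), 5.24 (weighted), 1.32 (drawn) and 1.55 (smallest library left out), and no D call -1.21 (minimum 5 UMIs), -1.90 (minimum 10 UMIs), -1.19 (score), -0.230 (drawn), -0.293 (position 6) and -0.217 (smallest library left out). mLN minus spleen, TRBD2 in TRBJ2 was -1.07 (minimum 5 UMIs), -0.526 (1 gene), -1.37 (score), -0.917 (weighted), -0.0805 (drawn), -0.660 (ties left out), -1.03 (ties to TRBD2) and -0.680 (position 6), TRBD2 in TRBJ1 0.816 (weighted), and no D call -1.40, -0.877 and -1.05 (minimum 1, 5 and 10 UMIs), -0.937 (weighted), -0.234 (drawn) and -0.101 (position 6).

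TRBD2 minus TRBD1, the share in the other organ in TRBJ1 was 1.23 (1 gene), 0.0699 (in frame) and 0.293 (smallest library left out), CDR3 length in TRBJ1 0.403 (weighted), log2 UMIs in TRBJ2 0.0301 (score) and 0.00871 (drawn), and the share in another mouse in TRBJ2 -0.981 (score). With only calls covering position 6, 9 values, 4 of them glycine and N content and so no test of these members, had an adjusted p of 0.0486: the TRBD2 share (53.6) and no D call (-10.3) by J cluster, and TRBD2 minus TRBD1 for length (1.76 in TRBJ2, -0.679 in TRBJ1), glycine (3.30 and 2.40), N nucleotides (-0.210 and -0.667) and the share in another mouse in TRBJ1 (-4.88). Without glycine and N content the other 5 had an adjusted p of 0.0625 and none passed. DESeq2 called 1 D-J combination in the spleen, TRBJ1-5 with no D call (log2 fold change -2.26).

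Leaving out 1 mouse at a time gave -2.62 to -0.182 for TRBD2 in TRBJ2, KO minus WT in the mLN, -0.512 to -0.0677 for CDR3 length and -4.92 to -2.58 for the share in another mouse in TRBJ1, TRBD2 minus TRBD1, and -0.610 to 1.45 (TRBD2 in TRBJ1) and -0.0884 to 1.08 (no D call) for KO minus WT in the spleen, -2.38 to 1.55 and -0.217 to 1.85 in the mLN, -0.187 to 0.376 for TRBD2 in TRBJ2, mLN minus spleen, and -1.87 to 1.73 for the other organ in TRBJ1, TRBD2 minus TRBD1. The libraries behind these turns were WT 3, KO 1 and KO 3 in the spleen, KO 3 in the mLN, WT 4 and KO 3 between organs, and WT 1 and KO 3 for the other organ.

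The deviations of WT and KO mice with the same replicate number correlated at -0.120 to 0.131 in 4 pairs, against 0.164 to 0.705 between organs of 1 mouse. Whether mice with the same number were processed together was not tested. Both libraries of WT 1 and of KO 1 were of the kind with few single-UMI clonotypes. With the number as a replicate block, TRBD2 in TRBJ2, KO minus WT, was -1.51 in the spleen and -0.765 in the mLN, and 0 D-J combinations were called. Ties, position 6, leaving glycine and N content out of the family, near neighbours, the smallest library and the kind of library (not computed for the other organ, with 3 mice left) were alternatives chosen after seeing the data. Depth limits the KO 3 mLN most, with 39 D-called TRBJ1 clonotypes.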
